A study of Mus musculus with 4 samples.

Results

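The genes examined here encode the enzymes that remove superoxide and peroxides and the thioredoxin, glutathione and methionine repair systems that keep protein thiols reduced. They are 32 genes listed by family, and each was taken by its symbol from the counts of the full length (FL) transcript libraries of intestinal stem cells (ISCs). All 32 were among the 52459 genes listed, and 27 of the 32 were among the 13692 genes with enough reads to be tested. ISCs were sorted from the small intestine of wild-type (WT) female C57/Bl6 mice, and the question was how the young and the old state differ in gene expression. The 2 young samples (ISC_2mth, mice of 2 months) and the 2 old samples (ISC_22mth, mice of 22 months) were each 1 library from a pool of 5 animals, with no treatment, transgene or reporter in either age. Sorting used surface markers (the SM6 strategy), which keeps epithelial cells positive for EPCAM and CD166, high in CD44 and EPHB2, intermediate in CD24 and low in GRP78, and leaves out cells carrying CD31 or CD45.

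As background, superoxide leaking from respiration or made by oxidases is turned into hydrogen peroxide by superoxide dismutases, and the peroxide is then removed by catalase, by glutathione peroxidases or by peroxiredoxins. Glutathione peroxidases draw their electrons from glutathione, which glutathione reductase recycles with NADPH, whereas most peroxiredoxins draw theirs from thioredoxin, which thioredoxin reductases recycle, also with NADPH. In the intestine these systems work at a surface exposed to oxidants from food, microbes and immune cells, and glutathione peroxidases of crypt cells, Gpx2 above all, are a well known part of this defence.

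The libraries held between 11662654 and 15975698 counts. Mitochondrially encoded genes took 62.6% to 65.7% of a young library and 72.9% to 73.8% of an old one, which left between 3852178 and 4593004 counts per library on all other genes. Values are given as normalized CPM (counts scaled to a common library size by the TMM method, which centres the bulk of genes), and 3 counts, the level taken as the limit of detection, corresponded to between 0.198 and 0.245 normalized CPM. SPIA amplification adds no molecular identifiers, so this limit covers counting error only. In bulk samples, fewer cells of a type and less RNA per cell cannot be told apart. Stem cell markers were abundant in each pool, with a summed level over 14 genes of 4234 and 4024 normalized CPM in the young pools and 3870 and 4113 in the old pools. The proteins of Cd44, Ephb2 and Epcam, which are among these genes, were also used in the sort.

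Together, the 32 genes drew 16946 and 18140 counts in the young pools and 18288 and 18809 counts in the old pools. Of the counts outside the mitochondrial genome, these were 0.388% and 0.395% (young) and 0.437% and 0.488% (old). Txn1, Cat, Sod1 and Txnip carried between 53.3% and 58.6% of the genes' summed normalized CPM in each pool. Levels of different genes were compared as normalized CPM per kb of exons, averaged over the 4 pools. Txn1, cytosolic thioredoxin, stood highest at 236 CPM per kb, followed by Cat (catalase) at 86.7, Gpx1 (the widespread glutathione peroxidase) at 53.0, Txnip (an inhibitor of thioredoxin) at 39.5, Sod1 (cytosolic superoxide dismutase) at 35.2 and Gsr (glutathione reductase) at 25.3 CPM per kb. Of the 31 steps between neighbours in this order, 10 separated the pools of the 2 genes without overlap, and 21 did not. The pools of Txn1, Cat, Gpx1, Sod1, Gsr and Prdx6 did not overlap with those of the next gene down, whereas those of Txnip and Sod1 overlapped, as did all neighbours from Gss at 4.09 to Txnrd3 at 1.86 CPM per kb. Gpx1, at 53.0, stood above Gpx2, at 12.8, on this scale in each pool. The length counts every annotated exon of a gene, whether or not ISCs use it, so this order depends on the annotation. Not divided by length, Gpx1 had means of 76.8 (young) and 76.0 (old) normalized CPM and Gpx2 had 39.5 and 42.9. Sod1, at 135 and 144 normalized CPM, then stood above Gpx1.

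**Figure D1:**
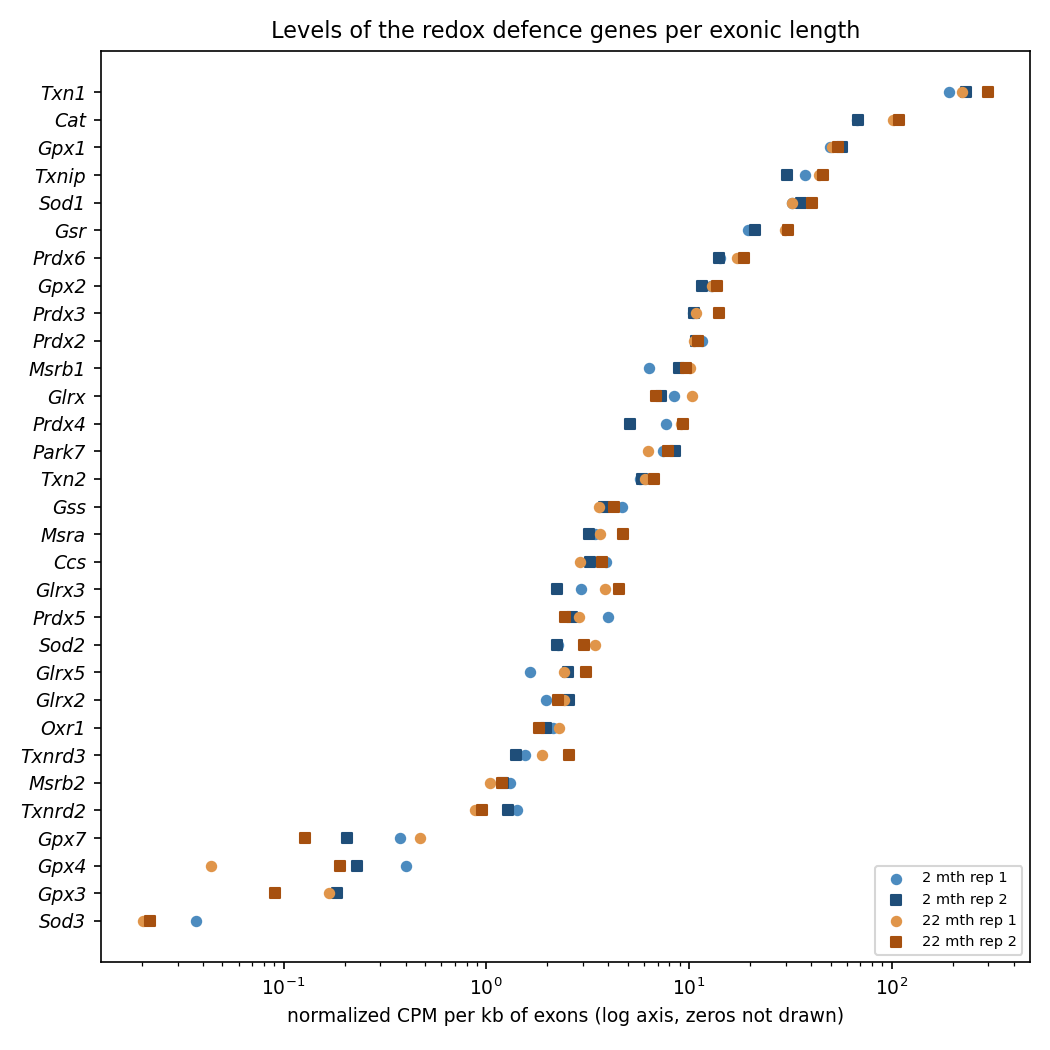
Level of each gene in each of the 4 pools, as normalized CPM per kb of exons on a log axis, ordered by the mean over the pools. Circles are replicate 1 and squares replicate 2, blue for mice of 2 months and orange for mice of 22 months, and zeros (all pools of Gpx8 and 1 pool each of Gpx3 and Sod3) are not drawn. Txn1 stands highest at a mean of 236 and Sod3 lowest of those drawn at 0.0198.

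Of the 27 genes tested, 2 were upregulated in old ISCs, Cat and Gsr, and 0 were downregulated (edgeR quasi-likelihood test, FDR under 0.05). These are 7.41% of the genes tested, beside 2.26% of all 13692 genes called in either direction, 1.63% higher and 0.628% lower. At an unadjusted p under 0.05, 9 of the 27 genes (33.3%; Cat, Gsr, Glrx3, Sod2, Txnip, Prdx6, Prdx4, Txn1 and Txnrd3) were higher and 0 lower, where 9.26% of all genes were higher and 7.65% lower. For 13 genes (48.1%) the old pools were both above the young ones, against 24.0% of all genes, and for 2 genes both were below, against 23.6%. Normalized by TMM, the log2 fold change (old over young) was positive for 19 genes and negative for 8. Its median was 0.14 over the 27 genes, beside -0.0049 over all genes tested. This median rested partly on single pools, being 0.23 without ISC_2mth replicate 2, 0.25 without ISC_22mth replicate 1 and 0.088 without ISC_22mth replicate 2. These shares describe the 27 genes, which were not tested as a set.

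The direction depended on the scaling. Scaled to total counts, in which the larger mitochondrial share of the old libraries enters, the median of all genes was -0.50, and 34.0% of all genes were called, 33.3% lower and 0.701% higher. On that scale 7 of the 27 genes were called lower (Gpx1, Gss, Park7, Prdx2, Prdx5, Sod1 and Txnrd2) and 0 higher, and 12 were lower at an unadjusted p under 0.05. The median of the 27 genes was then -0.35, which is 0.145 above that of all genes, where with TMM it was 0.147 above. All changes below are therefore relative to the bulk of genes, as TMM sets it. The count of called genes was 4 with edgeR's likelihood ratio test, which called 4.46% of all genes, and 2 with offsets for GC content and length, which called 0.884%. It was 2, 2, 5 and 3 without ISC_2mth replicate 1, ISC_2mth replicate 2, ISC_22mth replicate 1 and ISC_22mth replicate 2, which called 1.07%, 2.04%, 4.73% and 5.05% of all genes. For 1 gene alone, 2 pools against 2 allow no two-sided exact permutation p below 0.333, and FDR values come from the fit over all genes, which shares information on the spread among them.

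**Figure D2:**
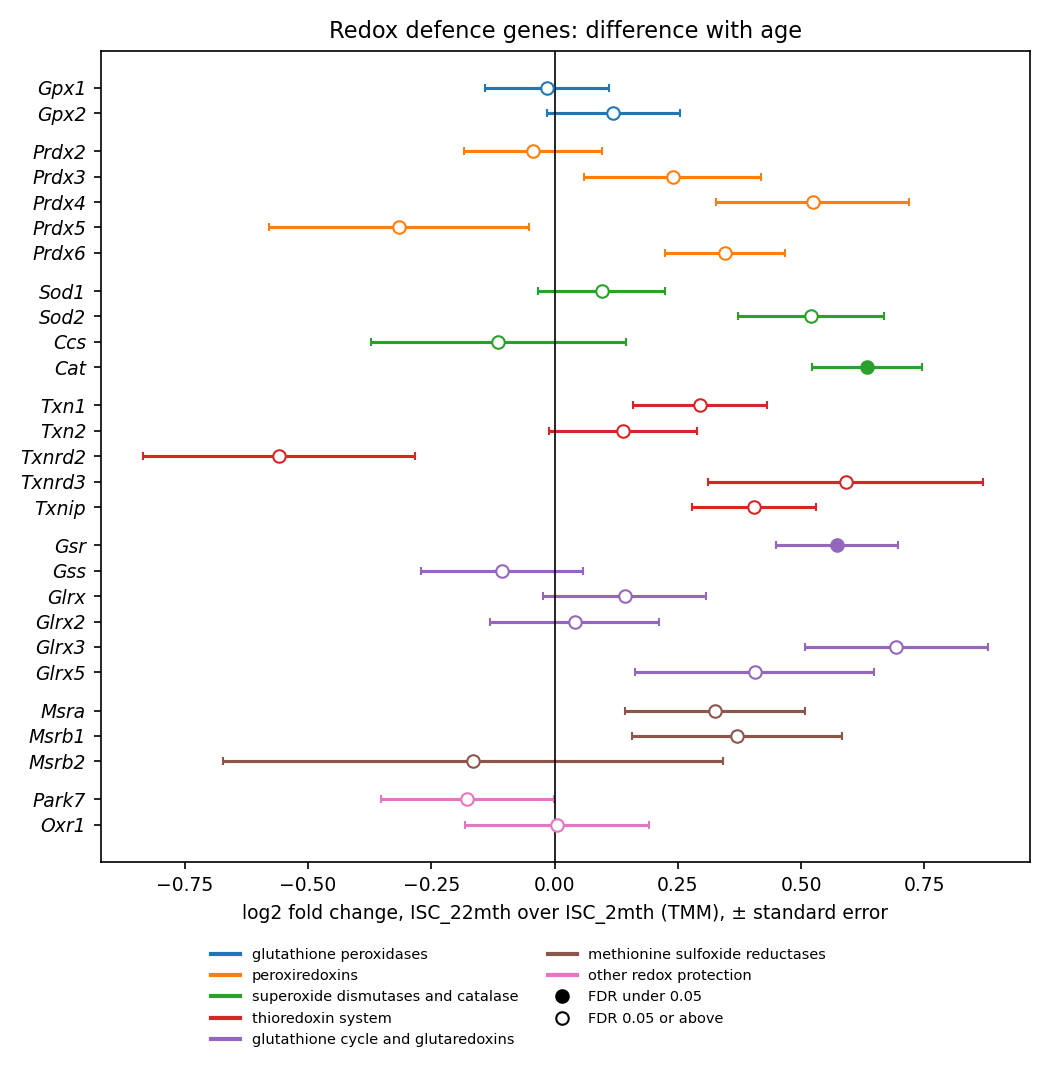
Log2 fold change of old over young ISCs with its standard error for the 27 genes tested, coloured by role and normalized by TMM. Filled points are the 2 genes with FDR under 0.05, Cat at 0.63 and Gsr at 0.57, which scaled to total counts stand at 0.14 and 0.084 without a call, and 13 of the other points change sign on that scale.

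Among superoxide dismutases and catalase, 1 of 4 genes tested was upregulated. Catalase (Cat), the haem enzyme of peroxisomes that splits hydrogen peroxide into water and oxygen, is encoded on chromosome 2 (chr2:103453849-103485160, minus strand, GRCm38). It was counted at 2561 and 2695 reads in the young pools and at 3515 and 3485 reads in the old pools. The normalized CPM were 177 and 179 (young) and 266 and 285 (old). Both old pools stood well above both young pools, and the distance between ages was larger than that between pools of 1 age. The mean rose from 178 ± 1.34 to 276 ± 13.7 normalized CPM (SD, n = 2), a fold of 1.55. The log2 fold change was 0.63 with a standard error of 0.11 (edgeR, FDR = 0.00455). It stayed between 0.58 and 0.68 with any 1 pool left out, with FDR under 0.05 each time. It remained called under 12 of 14 other settings. It was 0.14 (FDR = 0.405) scaled to total counts. No stretch of 50 nt of its transcripts was shared with another gene.

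Sod2, the manganese superoxide dismutase of mitochondria, had 329, 338, 455 and 369 counts in ISC_2mth replicates 1 and 2 and ISC_22mth replicates 1 and 2, the order used for all values in the 4 pools. These were 22.7, 22.4, 34.4 and 30.2 normalized CPM. Both old pools were again above both young pools, but the difference did not pass the adjusted threshold (log2 fold change 0.52, standard error 0.15, edgeR, FDR = 0.0746). Sod2 shares 21.0% of its stretches with other transcripts, mostly outside its coding transcripts, so its counts are less certain than those of Cat. Sod1, the copper and zinc enzyme of the cytosol, had 128, 142, 128 and 161 normalized CPM (1854, 2143, 1686 and 1965 counts), and the ages overlapped (log2 fold change 0.096, standard error 0.13, FDR = 0.761). Ccs, the chaperone that loads copper into Sod1, had 6.97, 5.76, 5.15 and 6.63 normalized CPM, also overlapping (log2 fold change -0.11, FDR = 0.869). Sod3, the secreted enzyme, had 2, 0, 1 and 1 counts, at or below the limit of detection in each pool, and was not tested.

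In the glutathione cycle and the glutaredoxins, 1 of 6 genes was upregulated. Glutathione reductase (Gsr), which uses NADPH to return oxidized glutathione to its reduced form, lies on chromosome 8 (chr8:33652523-33698163, plus strand, GRCm38). Its counts were 777, 884, 1081 and 1039, or 53.6, 58.6, 81.8 and 85.1 normalized CPM. The old pools lay above the young pools, and pools of the same age lay close together. The mean rose from 56.1 ± 3.51 to 83.4 ± 2.33 normalized CPM (SD, n = 2), a fold of 1.49, with a log2 fold change of 0.57 and a standard error of 0.12 (edgeR, FDR = 0.0195). The log2 fold change was between 0.51 and 0.63 with any 1 pool left out, and the call was lost without ISC_2mth replicate 1 (FDR = 0.214). Scaled to total counts it was 0.084 (FDR = 0.659). No stretch of its transcripts was shared with another gene.

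Glrx3, a glutaredoxin of cytosol and nucleus that carries iron-sulfur clusters, had the largest log2 fold change of the 27 genes. It was counted at 213, 170, 255 and 277 reads, or 14.7, 11.3, 19.3 and 22.7 normalized CPM. The ages did not overlap, yet the difference stopped just short of the threshold (log2 fold change 0.69, standard error 0.18, edgeR, FDR = 0.0562), and 4 of 14 other settings called it. Of the stretches of 1 coding transcript of Glrx3, 66.7% occur in other genes, mainly the pseudogene Gm12669, so its reads could be split between them. Gss, which completes the synthesis of glutathione, had 27.7, 22.5, 21.3 and 25.4 normalized CPM, with the ages overlapping (log2 fold change -0.11, FDR = 0.799). Glrx, the cytosolic glutaredoxin, had 46.3, 39.9, 57.1 and 37.9 normalized CPM (671, 602, 754 and 463 counts), the old pools lying on both sides of the young ones (log2 fold change 0.14, standard error 0.17, FDR = 0.714). Its mitochondrial relatives Glrx2 (0.041, FDR = 0.932) and Glrx5, which serves iron-sulfur cluster assembly (0.41, FDR = 0.421), overlapped between ages as well. With any 1 pool left out, the log2 fold change of Glrx5 was between 0.14 and 0.74.

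In the thioredoxin system 0 of 5 genes passed the adjusted threshold, and 3 had an unadjusted p under 0.05, all higher in old ISCs. Txnip, which binds reduced thioredoxin and also restrains glucose uptake, had 1694, 1438, 1813 and 1752 counts, or 117, 95.3, 137 and 143 normalized CPM. Its old pools were close to each other and above both young pools, which lay further apart (106 ± 15.3 against 140 ± 4.45, SD, n = 2). The log2 fold change was 0.40 with a standard error of 0.13 (edgeR, FDR = 0.104), and between 0.26 and 0.56 with any 1 pool left out. It was -0.095 scaled to total counts. The exons of Txnip overlap those of the antisense gene Gm15441 over 606 bp, and that gene itself was counted at 10, 10, 17 and 15 reads. Without a stated strand setting, reads of the overlap cannot be assigned to one of them.

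Txn1, cytosolic thioredoxin, had 202, 244, 235 and 312 normalized CPM (2922, 3684, 3105 and 3812 counts). One old pool fell between the young pools, and the log2 fold change of 0.30 (standard error 0.14, edgeR, FDR = 0.277) depended on the old pool used, being 0.49 (FDR = 0.0048) without ISC_22mth replicate 1 and 0.076 (FDR = 0.819) without ISC_22mth replicate 2. Txnrd3, a thioredoxin reductase that also reduces glutathione, had 64, 60, 71 and 89 counts, or 4.42, 3.98, 5.37 and 7.29 normalized CPM (log2 fold change 0.59, standard error 0.28, edgeR, FDR = 0.29). At such counts the standard error was well above the 0.11 of Cat.

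Neither gene of the mitochondrial arm of this system passed. Txn2, mitochondrial thioredoxin, had 24.1, 24.8, 25.7 and 28.3 normalized CPM (log2 fold change 0.14, FDR = 0.688). Txnrd2, the mitochondrial thioredoxin reductase, was 1 of the 2 genes with both old pools below both young pools, at 90, 85, 51 and 51 counts, or 6.21, 5.63, 3.86 and 4.18 normalized CPM. Its log2 fold change of -0.56 (standard error 0.28, edgeR, FDR = 0.314) did not pass the threshold, and it was the most negative of the 27. Scaled to total counts it was called lower, at -1.05 (FDR = 0.00791).

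**Figure D3:**
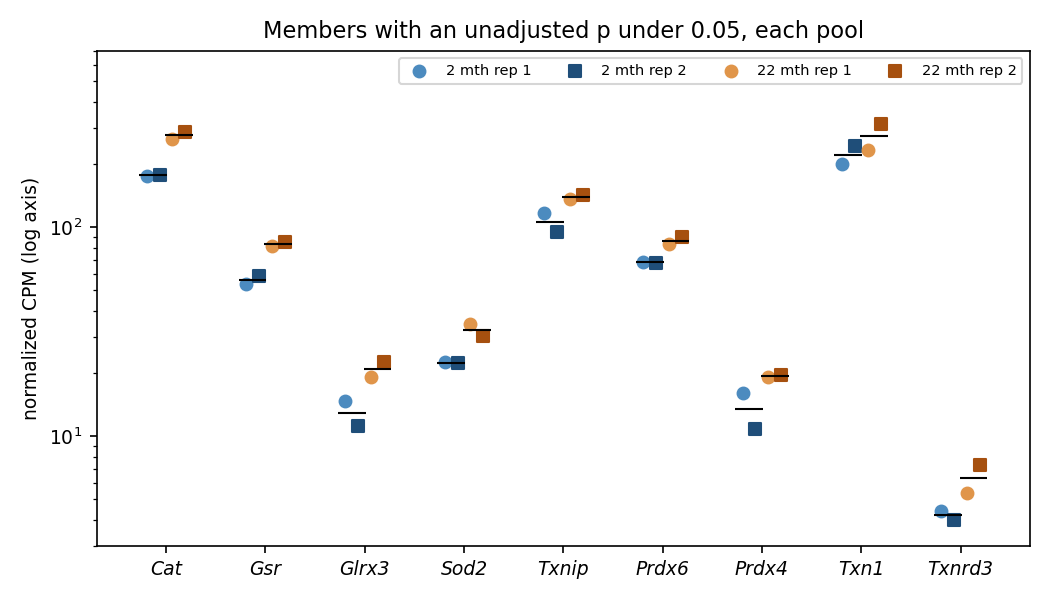
Normalized CPM on a log axis of the 9 genes with an unadjusted p under 0.05, in order of p, with each pool as a point (blue for 2 months, orange for 22 months) and the mean of each age as a line. The ages do not overlap for 8 of the 9 genes, and for Txn1 the old pool at 235 lies below the young pool at 244. Scaled to total counts, Prdx6, Txn1 and Txnip have a negative log2 fold change instead.

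Peroxiredoxins, thiol peroxidases that remove peroxide at very low levels, gave 0 calls among 5 genes and 2 with an unadjusted p under 0.05. Prdx6, which uses glutathione and repairs oxidized phospholipids, was the most highly expressed of these 5, with 68.3, 67.6, 83.0 and 89.8 normalized CPM (990, 1020, 1097 and 1096 counts). The young pools were nearly equal and both old pools exceeded them (log2 fold change 0.35, standard error 0.12, edgeR, FDR = 0.152), although it was -0.15 scaled to total counts. Prdx4, the peroxiredoxin of the endoplasmic reticulum, had 16.2, 10.8, 19.1 and 19.7 normalized CPM (235, 163, 253 and 240 counts), with more spread between the young pools than between the old (log2 fold change 0.52, standard error 0.20, edgeR, FDR = 0.175). With any 1 pool left out, the log2 fold change of Prdx4 was between 0.25 and 0.85.

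Cytosolic Prdx2, at 35.3, 32.9, 32.2 and 33.9 normalized CPM, kept the same level within its error (log2 fold change -0.044, standard error 0.14, FDR = 0.911). Mitochondrial Prdx3 had 15.5, 15.7, 16.0 and 20.8 normalized CPM (log2 fold change 0.24, FDR = 0.534), with 1 old pool near the young ones. Its log2 fold change was between 0.042 and 0.42 with any 1 pool left out, and 0.062 with offsets for GC content and length. Prdx5, found in several compartments, had 8.49, 5.70, 6.13 and 5.24 normalized CPM (log2 fold change -0.32, standard error 0.26, FDR = 0.584). With any 1 pool left out, the log2 fold change of Prdx5 was between -0.58 and -0.0004. Prdx2 and Prdx5 overlap genes of the opposite strand, Rnaseh2a over 177 bp and Trmt112 over 409 bp.

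Of the 6 glutathione peroxidases, 4 had counts too low to test. Gpx1 had 71.1, 82.4, 73.3 and 78.7 normalized CPM (1031, 1244, 968 and 961 counts), and its old pools fell between its young pools, with means of 76.8 ± 7.99 and 76.0 ± 3.86 (SD, n = 2) and a log2 fold change of -0.016 with a standard error of 0.13 (edgeR, FDR = 0.964). Gpx2, the form of the gut epithelium, had 41.5, 37.6, 41.7 and 44.1 normalized CPM (log2 fold change 0.12, standard error 0.14, FDR = 0.707). The old pools of Gpx2 were above the young ones by less than the young pools differed from each other.

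Gpx3, the form secreted into plasma, had 0, 5, 4 and 2 counts. The forms of the endoplasmic reticulum had 7, 4, 8 and 2 counts (Gpx7) and 0 in each pool (Gpx8), for which the limit of 3 counts allows up to between 0.198 and 0.245 normalized CPM. Gpx4, which reduces lipid hydroperoxides in membranes, had 10, 6, 1 and 4 counts. Up to 78.4% of the stretches of a coding transcript of Gpx4 also occur in the pseudogene Gpx4-ps2, so a low count of Gpx4 cannot be read as low expression where reads that align to several places may have been left out.

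Methionine sulfoxide reductases, which repair oxidized methionine in proteins, gave 0 calls among 3 genes. Msra, which acts on the S form, had 14.8, 13.8, 15.7 and 20.2 normalized CPM (215, 208, 207 and 247 counts, log2 fold change 0.33, standard error 0.18, FDR = 0.389). Msrb1, a selenoprotein that acts on the R form, had 8.00, 11.2, 12.7 and 12.1 normalized CPM (116, 169, 168 and 148 counts, log2 fold change 0.37, FDR = 0.402). For both, the old pools exceeded the young ones by little against the spread within an age. Mitochondrial Msrb2 was the other gene with both old pools below both young ones, at 26, 25, 19 and 20 counts (log2 fold change -0.17, standard error 0.51, FDR = 0.908), too few reads for a difference of that size to be detectable. Park7 (DJ-1), a sensor of oxidative stress, had 18.4, 21.2, 15.5 and 19.6 normalized CPM (267, 320, 205 and 239 counts, log2 fold change -0.18, standard error 0.18, FDR = 0.655). Oxr1, a protein that protects cells from oxidative damage, had 220, 212, 216 and 158 counts (log2 fold change 0.0049, FDR = 0.994), its old pools, at 16.3 and 12.9 normalized CPM, lying on both sides of the young ones.

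By compartment, 0 of 7 mitochondrial genes passed the threshold, with a median log2 fold change of 0.14 and a range from -0.56 (Txnrd2) to 0.52 (Sod2). Both called genes were among the 19 tested genes of the cytosol, nucleus, peroxisome or several places, which had a median of 0.14 too. Of the 5 genes of the secretory pathway or secreted, Prdx4 alone had enough reads to be tested. Among the selenoproteins (Gpx1, Gpx2, Gpx3, Gpx4, Txnrd2, Txnrd3 and Msrb1), 5 were tested, 0 passed at FDR under 0.05 and 1 had an unadjusted p under 0.05 (Txnrd3). Whether compartments or classes differed from each other was not tested.

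**Figure D4:**
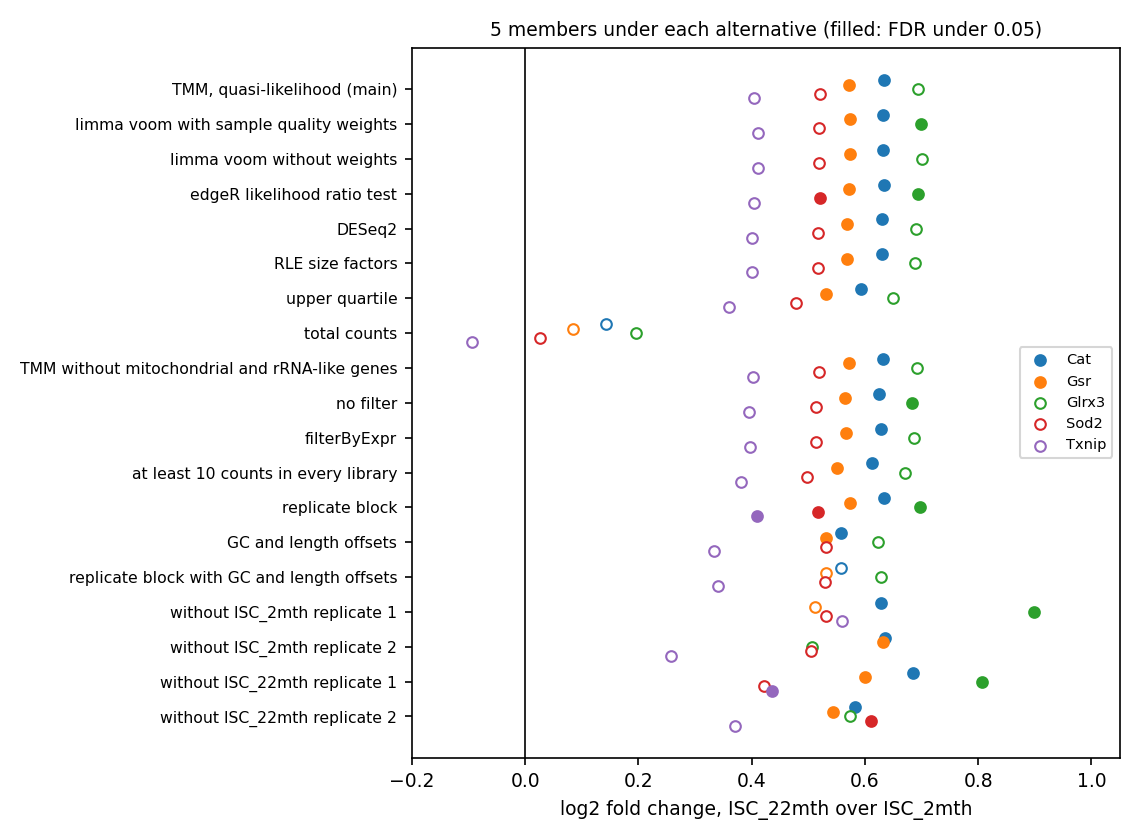
Log2 fold change of old over young ISCs for the 5 genes of lowest p under each setting, with filled points where FDR was under 0.05. Cat lies between 0.14 and 0.68 and Gsr between 0.084 and 0.63, and total counts, at the low end for each of the 5 genes, turned Txnip to -0.095.

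The differences were small beside what the design resolves. In simulated counts of the same depth and spread, 30% of genes changed by 0.5 on the log2 scale were recovered at FDR under 0.05, 88% of those changed by 1 and 100% of those changed by 2. The changed genes were drawn only from genes above a set mean level, which Msrb2 did not reach. These shares therefore do not cover genes with few reads. Standard errors of the 27 genes ran from 0.11 (Cat) to 0.51 (Msrb2), so that genes without a call may still differ by amounts of the size seen for Cat and Gsr.

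Promoter stretches are shown for Cat, the called gene with a window, for Txnip, the most highly expressed of the other genes with a window whose ages did not overlap, and for Sod1, the gene with the antioxidant response core. They were chosen after the matches were seen. Windows of RefSeq (GRCm38.p6) were matched by symbol for 26 of the 32 genes, and Sod3, Prdx6, Oxr1, Ccs, Gsr and Msra had none. In the 250 bases before the start, on both strands, the CCAAT box was found in 14 of the 26 genes and in 40.7% of the tested genes with a window, and the GC box GGGCGG in 16 of 26 and in 63.0%. The element TGACNNNGC, the core of the antioxidant response element, was found in 1 of 26 (Sod1) and in 13.9% of tested genes. The E-box CACGTG was found in 2 of 26 (Glrx2 and Prdx4) and in 9.86% of tested genes, the forkhead motif TGTTTAC in 2 of 26 (Glrx2 and Txnip) and in 2.88%, and TATAAA in 4 of 26 and in 8.08%. Over all 32851 windows the shares were 33.9% (CCAAT), 32.7% (GGGCGG), 10.2% (TGACNNNGC), 6.02% (CACGTG), 3.17% (TGTTTAC) and 12.4% (TATAAA). Matches are descriptions of the letters and no factor was measured at them. Capitals mark the match in each stretch of 30 bases, printed in the direction of transcription. Stretches are not printed for 2 more CCAAT matches of Cat and 1 more CCAAT match and a GC box of Txnip, all on the opposite strand, nor for the CCAAT, GC box and TATAAA matches of Sod1.
Cat, CCAAT, chr2:103485221-103485250, minus strand: cccaccctccttCCAATcccgtcctttcta
Cat, CCAAT, chr2:103485191-103485220, minus strand: gagttccagtggCCAATcaggaggcggccg
Cat, GC box, chr2:103485160-103485189, minus strand: cccaagggtgggGGGCGGtgctgattggtg
Txnip, CCAAT, chr3:96557843-96557872, plus strand: agggccaagtagCCAATgggagaactgtgc
Txnip, forkhead motif on the opposite strand, chr3:96557825-96557854, plus strand: ttggaggcctgGTAAACAagggccaagtag
Sod1, antioxidant response core on the opposite strand, chr16:90220696-90220725, plus strand: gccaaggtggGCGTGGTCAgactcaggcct
Sod1, the gene with the antioxidant response core, differed by 0.096 on the log2 scale (FDR = 0.761). Among the 7 genes with a window and an unadjusted p under 0.05, 0 had that core, 5 had a CCAAT box and 5 a GC box.

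Other genes of the pathway were taken from 7 lists of 115 genes in all, of which 93 were tested. Of these, 7 (7.53%) were upregulated and 0 downregulated at FDR under 0.05, beside 1.63% and 0.628% of all genes tested. At an unadjusted p under 0.05, 20 were higher and 5 lower, where 9.26% of all genes were higher and 7.65% lower. Scaled to total counts, 1 was called higher and 27 lower, where 0.701% and 33.3% of all genes were. With any 1 pool left out, between 2 (Ddo and Txndc17, without ISC_2mth replicate 1, which called 1.07% of all genes) and 12 (without ISC_22mth replicate 2, which called 5.05%) were called. Of the 7 genes, Gclm, Maoa, Nfe2l2, Selenof and Idh1 lost their calls without ISC_2mth replicate 1, at log2 fold changes of 0.55, 0.51, 0.39, 0.71 and 0.74 beside 0.69, 0.69, 0.52, 0.67 and 0.72 with all pools. Selenof and Idh1 also lost them without ISC_2mth replicate 2 (0.63 and 0.69), and Idh1 without ISC_22mth replicate 1 (0.55). With offsets for GC content and length 1 of the 93 was called (Ddo). The log2 fold changes of the other 6 were then 0.54 for Txndc17 (FDR = 0.057), 0.63 for Gclm (FDR = 0.0644), 0.59 for Selenof (FDR = 0.0729), 0.55 for Maoa (FDR = 0.0958), 0.58 for Idh1 (FDR = 0.108) and 0.42 for Nfe2l2 (FDR = 0.137). Cat and Gsr were called, at 0.56 (FDR = 0.0252) and 0.53 (FDR = 0.0492).

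Among the NRF2 regulators and their classical targets, 2 of 19 were upregulated, with a median log2 fold change of 0.22 and 8 of the 19 values negative. Nfe2l2, which encodes NRF2, rose from 162 ± 22.1 to 232 ± 19.7 normalized CPM (SD, n = 2), with a log2 fold change of 0.52 (FDR = 0.0299), which was 0.036 scaled to total counts. Gclm, the modifier subunit of the enzyme that limits glutathione synthesis, rose from 20.6 ± 3.05 to 33.3 ± 2.76 (log2 fold change 0.69, FDR = 0.0232), while its catalytic partner Gclc did not pass (0.25, FDR = 0.479). Neither Cul3, the scaffold of the ligase that marks NRF2 for degradation (0.38, FDR = 0.121), nor Ftl1, the ferritin light chain, passed. Ftl1 had 48, 34, 14 and 21 counts, with both old pools below both young pools (2.78 ± 0.749 against 1.39 ± 0.467 normalized CPM, SD, n = 2, FDR = 0.285 by edgeR). Fth1, the ferritin heavy chain, went the other way and did not pass either (269 ± 13.8 against 319 ± 37.6, log2 fold change 0.25, FDR = 0.29 by edgeR). Stretches shared with other genes were not counted for Ftl1, so its low counts cannot be read as low expression. Hmox1, heme oxygenase 1, had 0, 1, 0 and 0 counts and was not tested. Among 18 other enzymes of the same families 2 were upregulated, Gclm, which is in both lists, and Txndc17, with a median of 0.26 and 5 negative values. Txndc17, a relative of thioredoxin, rose from 36.8 and 40.9 normalized CPM in the young pools to 64.2 and 67.6 in the old pools (log2 fold change 0.76, FDR = 0.00399). Neither Prdx1, another cytosolic peroxiredoxin (0.38, FDR = 0.132), nor Txnrd1, the cytosolic thioredoxin reductase (-0.089, FDR = 0.799), passed.

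Among 17 tested genes of NADPH supply, 1 was upregulated, Idh1, the cytosolic and peroxisomal isocitrate dehydrogenase, from 15.9 ± 0.358 to 26.2 ± 4.10 normalized CPM (log2 fold change 0.72, FDR = 0.0271). The median of the 17 was -0.021, and 9 were negative, among them Mthfd2, a mitochondrial folate enzyme, with both old pools below both young pools (-0.54, FDR = 0.284). Among 14 other selenoproteins, Selenof, of the endoplasmic reticulum, rose from 21.3 ± 0.750 to 33.8 ± 3.72 (log2 fold change 0.67, FDR = 0.0232). The median of the 14 was 0.10, and 6 were negative. Selenow, a small selenoprotein, had 141, 112, 74 and 52 counts, with both old pools below both young pools, and did not pass (log2 fold change -0.79, FDR = 0.117). In selenoprotein synthesis 0 of 10 genes passed at FDR under 0.05, with 1 at an unadjusted p under 0.05 (Pstk) and 3 negative values. Among regulators and relatives of Txnip 0 of 7 passed on either measure, and 5 were negative.

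In the list chosen as enzymes that produce oxidants, 2 of 15 tested genes (13.3%) were upregulated, beside 1.63% of all genes tested. The median log2 fold change was 0.14, 5 of the 15 values were negative, and 4 genes had both old pools below both young pools. Ddo, the peroxisomal D-aspartate oxidase, had 66, 52, 159 and 154 counts, with means of 4.00 ± 0.783 and 12.3 ± 0.410 normalized CPM (SD, n = 2), and each old pool was far above each young pool. Its log2 fold change was 1.62 with a standard error of 0.24 (edgeR, FDR = 0.000882). It was called under 14 of 14 other settings, and was still 1.13 scaled to total counts. Maoa, the monoamine oxidase A of the mitochondrial outer membrane, rose from 30.8 ± 5.96 to 49.7 ± 5.07 (log2 fold change 0.69, FDR = 0.0218). Duoxa2, the maturation factor of the oxidase DUOX2, was lower at an unadjusted p under 0.05 and did not pass (FDR = 0.15). It had 32, 3, 2 and 0 counts, so that most of its reads came from ISC_2mth replicate 1. Ddo shares the peroxisome with catalase.

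Markers of other cell types moved with age beside these genes. Of 14 enterocyte markers, 5 were upregulated, among them Sis, Fabp1, Fabp2 and Apob, and 11 were higher at an unadjusted p under 0.05, with a median log2 fold change of 0.67 and a summed level of 942 and 1071 normalized CPM in the young pools and 1662 and 1502 in the old pools. Of 9 Paneth cell markers, 2 were upregulated (Defa17 and Defa24), with sums of 941, 724, 2081 and 809 normalized CPM, of which the high value belongs to ISC_22mth replicate 1, and without that pool neither was called (Defa17 0.40, FDR = 0.117; Defa24 0.20, FDR = 0.403). Apob lost its call without either young pool (0.56 and 0.49), and Sis, Fabp1 and Fabp2 were called with any 1 pool left out. The log2 fold changes of Cat and Gsr were 0.68 and 0.60 without ISC_22mth replicate 1, and 0.58 and 0.54 without ISC_22mth replicate 2. Their relation to the marker levels was not tested. Of 14 stem cell markers, 0 passed at FDR under 0.05, 2 were higher and 6 lower at an unadjusted p under 0.05, and the median was -0.23. Those of lowest p were Axin2, a Wnt target (log2 fold change -0.46, FDR = 0.0511), and Ephb2 (-0.52, FDR = 0.0576), which were called lower under 11 and 8 of 14 other settings, and both old pools lay below both young pools for each. Goblet cell markers gave 0 calls of 8 and sums of 1948, 2566, 2660 and 2071 normalized CPM, with 0 at an unadjusted p under 0.05, and enteroendocrine markers gave sums between 42.4 and 154 with 0 calls of 7 tested and 1 at an unadjusted p under 0.05.

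Tuft cell genes, of the epithelium, summed to between 3.38 and 9.23 normalized CPM, with Dclk1 called higher, though not without ISC_2mth replicate 1 or ISC_22mth replicate 1, and Gnat3 and Il25 at 0. Markers of cells outside the epithelium had low summed levels. Those of 14 leukocyte genes summed to between 18.0 and 25.4 normalized CPM, with Cd3g, Cd79a, Itgax and Adgre1 among those at 0 in each pool. Most of that sum was Itgam, at 148, 196, 254 and 252 counts or 10.2 to 20.6 normalized CPM, which was called higher (log2 fold change 0.78, FDR = 0.0296), though not without ISC_2mth replicate 1. The other 2 leukocyte genes tested had negative values and did not pass, Cd68 at -0.79 (FDR = 0.321), with both old pools below both young pools, and Cd14 at -0.42 (FDR = 0.704). Summed levels were between 1.31 and 2.69 for 7 erythroid genes (6 at 0), between 0.345 and 1.26 for 6 endothelial genes (Cdh5, Kdr and Flt1 at 0) and between 0.199 and 0.757 for 8 mesenchymal genes (Col1a2, Col3a1, Pdgfra and Des at 0). The part of enterocyte or Paneth cell RNA in the rise of Cat and Gsr was not tested.

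**Figure D5:**
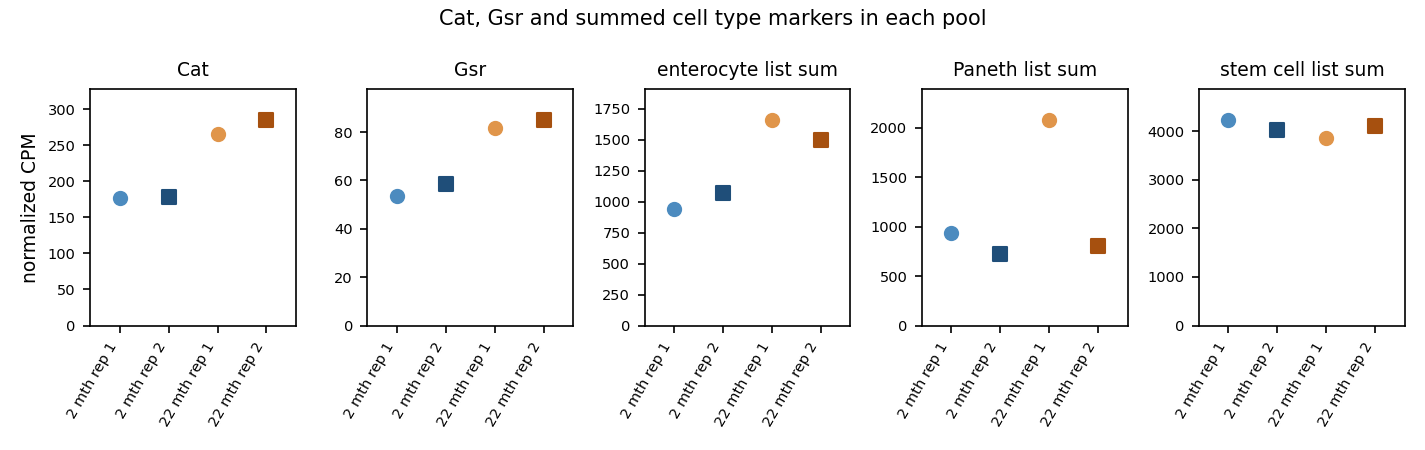
Normalized CPM of Cat and Gsr and summed normalized CPM of the enterocyte, Paneth and stem cell marker lists in each pool, on linear axes from 0, blue for 2 months and orange for 22 months. Cat, Gsr and the enterocyte sum (942 and 1071 against 1662 and 1502) separate the ages, the Paneth sum is high in ISC_22mth replicate 1 only (2081) and the stem cell sum overlaps (3870 to 4234). On total counts the rises of Cat and Gsr lost their calls.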

How the data were processed

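Each library was made from ISCs of 5 pooled animals, whose RNA was amplified by SPIA (NuGen) and sequenced single-end (2 libraries of each age). Per the labels and the paper, the authors trimmed reads (Trimmomatic 0.30), aligned them to GRCm38 (STAR 2.4.2a) and counted exonic reads per gene of the GENCODE vM15 annotation (featureCounts), and they deposited raw counts, neither normalized nor filtered. The strand setting and the handling of multimapping reads are not given in the sources used here. This decides how genes with pseudogenes or antisense partners are counted.

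Ages and replicates came from the sample labels, and nothing beyond the pools separates the replicates. P-values weigh a difference against the spread between these pools, estimated with information from all genes. The spread between animals was not measured. Replicates differed by more than sampling noise (chi-square per gene 9.42 in young and 7.11 in old ISCs). A gene was kept where at least 1 library had over 5 reads and over 1 CPM (13692 of 52459 genes), normalized by TMM and fitted with edgeR 4.0.16 (R 4.3.3, glmQLFit and glmQLFTest, no covariate), with Benjamini-Hochberg adjustment (FDR) over all genes kept and a threshold of 0.05. Normalized CPM use TMM library sizes, and values are mean ± SD.

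Other settings tried were edgeR's likelihood ratio test, limma voom (3.58.1; with sample quality weights or plain), DESeq2 1.42.0 (independent filtering off), RLE size factors, upper quartile, total counts, TMM without mitochondrial and rRNA-like genes, filterByExpr, a minimum of 10 counts in each library, no filter, a replicate block, offsets for GC content and exonic length (lowess, span 0.3, 3 iterations), block and offsets together, and each library left out in turn, where the lone library of an age was assumed to vary like the others.

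Positions, lengths and stretches of 50 nt shared between transcripts came from GENCODE vM21 of GRCm38, matched by symbol, since vM15 was not used here. All 32 genes are named, with counts for those with an unadjusted p under 0.05, the most expressed of each role and those not tested. From the pathway lists, called genes and the 3 of lowest p in each list could be named. After their values were seen, Gclc, Prdx1 and Txnrd1 were added as partners of named genes and Ftl1, Fth1 and Hmox1 as classical NRF2 targets. Duoxa2 and Mthfd2 were added in the same way, as genes lower at an unadjusted p under 0.05. The genes and lists were chosen with earlier results of these data known. The fit was tested on simulated counts for the 13692 genes (50 genes at each of 4 sizes), where 15, 44, 49 and 50 genes changed by 0.5, 1, 1.5 and 2 were recovered and 12 unchanged genes called. The changed genes were drawn from those above a set mean level.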

Additional observations from a re-analysis of the deposited data

How the results depend on the processing

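The count of called genes among the 27 was 2 in the main analysis and 2 or 3 under 10 of 14 other settings, which called between 0.884% and 2.34% of all genes. It was 4 with edgeR's likelihood ratio test (adding Glrx3 and Sod2) and 7 scaled to total counts, all lower. With any 1 library left out it ranged from 2 to 5, the 5 (Cat, Glrx3, Gsr, Txn1 and Txnip) coming without ISC_22mth replicate 1, and Cat was called each time. Glrx3 was also called without ISC_2mth replicate 1, where Gsr was not, and Sod2 without ISC_22mth replicate 2. Among all genes, 309 were called, against 611 with the likelihood ratio test, 197 with DESeq2, 4650 with total counts, 554 without a filter, 121 with offsets for GC content and length, and 147 (without ISC_2mth replicate 1) to 691 (without ISC_22mth replicate 2) with a library left out. Of the pathway lists, 7 genes were called, against 11 with the likelihood ratio test, 28 with total counts, 1 with the offsets, and 2 (without ISC_2mth replicate 1) to 12 (without ISC_22mth replicate 2) with a library left out. The median of the 27 genes turned to -0.35 with total counts and was 0.10 with the offsets, 0.080 with the replicate block and offsets together, and between 0.088 (without ISC_22mth replicate 2) and 0.25 (without ISC_22mth replicate 1) with a library left out. Without ISC_2mth replicate 2 it was 0.23.

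The replicate number does not pair the pools, which come from different animals. The correlation of deviations was -0.028, a single value, since with 2 pools per age both pairs must give the same one. As a block the replicate number gave 5 called genes of the 27 (Cat, Glrx3, Gsr, Sod2 and Txnip), 623 of all genes (4.55%) and 11 of the pathway lists. Block and offsets together gave 0 (6 at an unadjusted p under 0.05, all higher, with FDR = 0.0671 for Cat and 0.0972 for Gsr), 54 of all genes (0.394%) and 1 of the pathway lists.

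Total counts turned 13 genes negative: Gpx2 -0.38, Prdx3 -0.25, Prdx6 -0.15, Sod1 -0.39, Txn1 -0.19, Txn2 -0.35, Txnip -0.095, Glrx -0.36, Glrx2 -0.44, Glrx5 -0.071, Msra -0.17, Msrb1 -0.11 and Oxr1 -0.49. Oxr1, near 0, also turned under the upper quartile (-0.036), no filter (-0.0018), filterByExpr (-0.0010), at least 10 counts (-0.017), the block (-0.0033), the offsets (-0.036) and both (-0.043). With a library left out, log2 fold changes on both sides of 0 were found for Gpx1 (-0.12 to 0.088), Prdx2 (-0.10 to 0.0086), Sod1 (-0.081 to 0.25), Ccs (-0.31 to 0.060), Gss (-0.26 to 0.055), Glrx (-0.18 to 0.41), Glrx2 (-0.13 to 0.23) and Oxr1 (-0.18 to 0.16). The cause of these changes was not tested. Precision was limited by counts under 100 in each library for Msrb2, Txnrd2 and Txnrd3. Prdx5, Ccs and Glrx5 also had counts under 100 in some libraries, with standard errors of 0.26, 0.26 and 0.24. The 5 genes not tested had at most 10 counts in a library, and the cause of their low counts was not tested.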
